A study of Mus musculus with 17 samples.

Results

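The MAP kinase phosphatases of the Dusp family were followed in the hippocampus of control mice and of mice that had lost CBP in excitatory neurons, with and without repeated injections of a convulsant. The members were 10 genes chosen by symbol, namely Dusp1, Dusp2, Dusp4, Dusp5, Dusp6, Dusp7, Dusp8, Dusp10, Dusp14 and Dusp16. Each matched 1 row of a table of 55471 genes, of which 39260 had at least 1 count, and all 10 members were among these. The 17 libraries came from the hippocampi of male C57BL/6 mice aged 3 to 6 months, 1 animal per library by the study's sample table. CBP-ifKO mice carry floxed Crebbp and Camk2a_creERT2, a tamoxifen-inducible Cre driven in excitatory neurons of the forebrain, so that recombination leaves a truncated CBP in these neurons and spares the other cells of the tissue. All mice, controls included, received tamoxifen. The design text gives controls as littermates without the creERT2 transgene, whereas the sample labels name Camk2a_creERT2 for controls as well. Sal mice were never kindled and received saline. PTZ0 and PTZ45 mice went through the kindling protocol, 45 mg/kg pentylenetetrazol (PTZ), a blocker of GABA-A receptors, on alternate days. A week later they received saline (PTZ0) or 45 mg/kg PTZ (PTZ45). Hippocampi were taken 45 min after that last injection. The study reports that the protocol led to seizures in all controls, whereas no CBP-ifKO mouse reached the stage of progressive seizures. Kindled therefore names the protocol here, and seizure state and genotype cannot be told apart in the PTZ45 responses. Each of the 6 groups held 3 libraries, except Control PTZ45 with 2.

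MAP kinase phosphatases remove the phosphates from both the threonine and the tyrosine of the activation loop of ERK, JNK and p38, and so switch these kinases off. Several of their genes are themselves immediate early genes or targets of ERK, which makes them feedback inhibitors of the pathway that induces them, and in neurons synaptic activity is a classical inducer of Dusp1, Dusp5 and Dusp6. The family falls into inducible nuclear enzymes (Dusp1, Dusp2, Dusp4 and Dusp5), cytoplasmic enzymes that prefer ERK (Dusp6 and Dusp7), and enzymes that prefer JNK and p38 (Dusp8, Dusp10 and Dusp16). Dusp14 is a small atypical member without the domain that docks the kinase. CBP is a lysine acetyltransferase and coactivator that CREB and many other factors recruit to promoters and enhancers.

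The libraries held 5831992 to 18735643 counts, and the shallowest was CBP-ifKO Sal replicate 2. As a check of the labels, Crebbp had 1824 to 2429 normalized counts in the 8 control libraries and 1061 to 1337 in the 9 CBP-ifKO libraries, and Esr1, part of which is carried by creERT2, had 41.0 to 77.8 and 703.3 to 940.7. Markers of excitatory neurons were present in all groups, with summed levels of the 8 markers of 30330 to 43730 normalized counts. Markers of choroid plexus, 6 genes that mark the tissue lining the ventricles, summed to 10810 to 44280 in 5 libraries and to 418.2 to 1122 in the other 12. The 5 libraries were Control Sal replicate 2, CBP-ifKO Sal replicate 1, Control PTZ0 replicate 2, CBP-ifKO PTZ0 replicate 3 and CBP-ifKO PTZ45 replicate 2, and counts of members called are given with and without them. Control Sal and PTZ0 were sequenced on lane 3, Control PTZ45 and CBP-ifKO Sal on lane 4, and CBP-ifKO PTZ0 and PTZ45 on lane 5. Of the comparisons tested only Control PTZ0 against Sal and CBP-ifKO PTZ45 against PTZ0 lie within a lane. In the other comparisons of a pair of groups, lane and group cannot be told apart. The interactions and the genotype fit over all treatments also span lanes, and lane was not a term in them. In whole hippocampus, fewer cells of a type and less RNA per cell cannot be told apart.

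Levels were first compared between genes in unstimulated controls, as normalized counts per kb of exon. The length counts all annotated exons of a gene, and the order and the shares depend on this choice. For Dusp1 it was 3311 bases, against 1990 in its longest coding transcript, and for Dusp16 7798 against 5104. In Control Sal the highest mean levels per kb were those of Dusp8, at 212.8, and Dusp6, at 197.9, and the ranges of these neighbours overlapped. Dusp7 (140.2), Dusp14 (109.8), Dusp4 (74.9) and Dusp5 (59.9) followed, each without overlap with the next in the order. Dusp1 was low in the resting tissue, at 26.8 per kb, and its range overlapped that of Dusp16 (23.4), which in turn overlapped that of Dusp10 (21.2). Dusp2, the nuclear enzyme best known from lymphocytes, was close to absent, at 1.96 per kb and 118 raw counts over all 17 libraries. The resting hippocampus held most of its family RNA in Dusp8 (24.5% ± 1.35 of the summed level per kb, SD, n = 3), Dusp6 (22.8% ± 1.79) and Dusp7 (16.1% ± 0.356), and 3.09% ± 0.741 in Dusp1.

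The gene models of the members had few exons. Their median was 4, against 8 over 18863 protein-coding genes with counts, and their median exonic GC content was 55.4%, against 49.9%. The pentamer ATTTA, the core of the AU-rich elements found in short-lived mRNAs, was dense in the 3′ UTR of Dusp1 (5.80 per kb, higher than in 95.2% of genes) and Dusp2 (6.89 per kb, 97.0%), whereas Dusp6 (0.841 per kb) and Dusp5 (0.902 per kb) lay below the median gene (1.28 per kb) and Dusp7 and Dusp14 had none.

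The bases before the transcription start are shown for the 3 members that were called after PTZ in controls, Dusp1, Dusp5 and Dusp6, and for Dusp8, the member with most CRE sites and no call after PTZ. They were taken from the RefSeq starts on GRCm38.p6, which held 9 of the 10 members (all but Dusp4), and leave out bases that lie in an exon of the same gene in GENCODE M21. The windows of Dusp1 and Dusp8 lie within the annotated span of their genes. The windows are chr17:26508520-26508722 (minus strand), chr19:53528895-53529108 (plus), chr10:99262981-99263230 (plus) and chr7:142095285-142095534 (minus). They are written 5′ to 3′ in the direction of the gene, and capitals mark matches, on either strand, to the CRE bound by CREB (TGACGTCA, or its core TGACG, which lies within it), the AP-1 site (TGANTCA), the CArG box bound by SRF, the EGR site (GCGNGGGCG) or the TATA box (TATAAA).
Dusp1: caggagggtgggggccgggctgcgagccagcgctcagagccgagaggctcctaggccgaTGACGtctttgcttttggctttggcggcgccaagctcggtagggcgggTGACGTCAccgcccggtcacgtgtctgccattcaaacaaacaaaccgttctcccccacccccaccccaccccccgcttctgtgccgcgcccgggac
Dusp5: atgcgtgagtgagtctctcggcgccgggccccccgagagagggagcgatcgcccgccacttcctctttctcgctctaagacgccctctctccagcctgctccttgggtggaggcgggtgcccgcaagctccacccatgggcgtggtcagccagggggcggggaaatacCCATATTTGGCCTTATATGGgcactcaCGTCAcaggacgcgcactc
Dusp6: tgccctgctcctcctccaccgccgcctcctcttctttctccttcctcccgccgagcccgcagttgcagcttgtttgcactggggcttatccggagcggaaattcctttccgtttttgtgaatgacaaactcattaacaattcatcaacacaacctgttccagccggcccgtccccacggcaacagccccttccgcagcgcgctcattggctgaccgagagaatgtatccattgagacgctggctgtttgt
Dusp8: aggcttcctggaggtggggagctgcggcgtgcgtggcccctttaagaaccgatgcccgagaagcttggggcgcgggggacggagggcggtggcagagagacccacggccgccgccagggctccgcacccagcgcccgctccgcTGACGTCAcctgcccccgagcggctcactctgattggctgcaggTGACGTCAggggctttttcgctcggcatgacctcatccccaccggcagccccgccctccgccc

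Over the full 250 bases before the start, the complete CRE occurred in 2 of the 9 member windows, once in Dusp1, 143 to 136 bases before the start, and at 2 places in Dusp8. It occurred in 1.55% of 32851 such windows of all genes. The core TGACG was in 4 member windows (Dusp1, Dusp5, Dusp8 and Dusp16), against 17.8% of all windows. Dusp5 alone held CArG boxes, 2 side by side from 82 to 63 bases before the start, against 1.47% of all windows with at least 1. The EGR site was in Dusp2 and Dusp16 (4.70% of all windows), and neither the AP-1 site (6.75%) nor TATAAA (12.4%) was in any member window. No match was found in the windows of Dusp6, Dusp7, Dusp10 and Dusp14. These matches are a description of the letters in the windows, with no data on binding.

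The last PTZ injection was examined first in control mice. Against Sal, 3 of the 9 members with an adjusted p were called, all higher, namely Dusp1, Dusp6 and Dusp5, where 1.17% of all 17367 genes tested were called and 0.939% were called higher (DESeq2, adjusted p under 0.05). Against PTZ0, kindled mice given saline, the same 3 members were called, where 1.25% of 17982 genes were called and 1.18% higher. The median log2 fold change of the members with an adjusted p was 0.27 against Sal and 0.10 against PTZ0, beside 0.006 and -0.002 over all genes tested. Both comparisons use the same 2 Control PTZ45 libraries, in which 5 blood markers summed to 1410 to 1709 normalized counts, against 845.7 to 1168 in the other control libraries, and 1 of the 5, Hbb-bs, was called higher. In CBP-ifKO mice they summed to 886.6 to 1726 in PTZ45, against 983.6 to 1097 in Sal and 803.8 to 891.2 in PTZ0, and 0 of the 5 were called in either comparison by DESeq2 or edgeR, with 0 at an unadjusted p under 0.05 over Sal and 2 over PTZ0. No blood marker was at 0 in a whole group, and the part of blood in these results was not tested. In CBP-ifKO mice, 1 of 10 members was called against Sal (Dusp1, where 0.294% of genes were called and 0.086% higher) and 2 of 10 against PTZ0 (Dusp1 and Dusp6, where 0.0872% were called and 0.0607% higher), all higher. In CBP-ifKO PTZ45 against Sal, 1 of 8 excitatory neuron markers, Nrgn, was called lower and 5 had an unadjusted p under 0.05, with a median of -0.21 in log2. Their summed level ran from 34150 to 37330 normalized counts in PTZ45 and from 35650 to 41740 in Sal, and their part in the result was not tested. Without the 5 libraries rich in choroid plexus markers the counts in CBP-ifKO mice were 1 and 1, and in control mice 3 against Sal and 2 against PTZ0, where the call of Dusp5 was lost. Kindling alone, PTZ0 against Sal, gave 0 members called by DESeq2 and 0 by edgeR in either genotype, with 0 of 10 members at an unadjusted p under 0.05, where 0.00843% of genes were called in controls and 0.0112% in CBP-ifKO mice. Dusp2 aside, the log2 fold changes of this comparison ran from -0.11 for Dusp8 to 0.21 for Dusp14 in controls, and from -0.24 for Dusp1 to 0.04 for Dusp8 in CBP-ifKO mice.

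**Figure D1:**
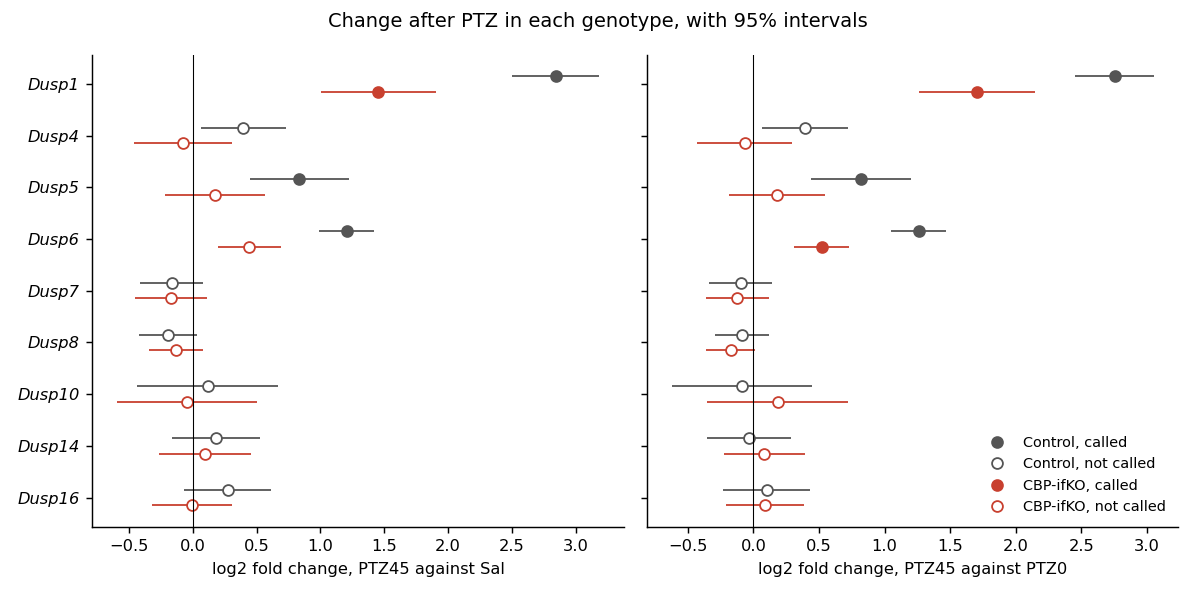
Log2 fold changes (x axis) of 9 members after the last PTZ injection, against Sal (left) and against PTZ0 (right), in Control (grey) and CBP-ifKO mice (red), with bars for 95% intervals and filled points for adjusted p under 0.05; Dusp2 is left out for its low counts. Dusp1, at 2.84 and 1.45 against Sal, and Dusp6, at 1.20 and 0.44, lie further from 0 in Control than in CBP-ifKO mice, while Dusp7, Dusp8, Dusp10, Dusp14 and Dusp16 lie close to 0 in both.

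Among the nuclear enzymes, Dusp1 (ENSMUSG00000024190, chromosome 17, 26505590 to 26562128, minus strand), an immediate early gene whose product acts on p38, JNK and ERK, had the largest change. The control libraries held 106.0, 65.3 and 94.9 normalized counts in Sal, 86.0, 108.9 and 95.2 in PTZ0, and 680.1 and 617.1 in PTZ45. The CBP-ifKO libraries held 65.3, 60.2 and 79.1 in Sal, 57.2, 59.2 and 58.4 in PTZ0, and 134.6, 212.9 and 222.8 in PTZ45. In both genotypes every PTZ45 library lay above all Sal and PTZ0 libraries, and the highest CBP-ifKO PTZ45 library held well under the lowest Control PTZ45 library. Of all genes tested, 16.7% over Sal and 17.6% over PTZ0 lay higher in PTZ45 without overlap in controls. The shares in CBP-ifKO mice were 6.69% and 4.67%. In controls Dusp1 rose 7.18-fold over Sal (log2 fold change 2.84, SE 0.17, adjusted p 9.15e-57 by DESeq2) and 6.74-fold over PTZ0 (2.75, SE 0.15, adjusted p 1.88e-67). In CBP-ifKO mice it rose 2.74-fold over Sal (1.45, SE 0.23, adjusted p 9.27e-07) and, within lane 5, 3.26-fold over PTZ0 (1.70, SE 0.22, adjusted p 1.85e-10). In controls over PTZ0, Dusp1 had no adjusted p by DESeq2 without Control PTZ45 replicate 1, after independent filtering. The gene model of Dusp1 overlaps Ergic1 on the opposite strand, and reads in the overlap cannot be told apart if the counting ignored strand, which the sources used here do not give. The rise over Sal in CBP-ifKO mice missed the threshold with edgeR, with an adjusted p of 0.0615, the highest of 15 alternatives that reached down to 6.03e-10.

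The difference between the genotypes in these responses was tested as an interaction of genotype and PTZ45. Over Sal, 2 of 10 members were called, Dusp1 and Dusp6, both with a smaller response in CBP-ifKO mice, where 0.329% of genes were called, and over PTZ0 the same 2 members were called, where 0.423% of genes were. For Dusp1 the log2 difference of the responses was -1.40 over Sal (SE 0.29, adjusted p 0.000618 by DESeq2) and -1.05 over PTZ0 (SE 0.26, adjusted p 0.0184). Both interactions rest on the 2 Control PTZ45 libraries, and a fit without 1 of them assumes that the lone sample varies like the other groups. Without Control PTZ45 replicate 1 neither member was called, with adjusted p-values by DESeq2 of 0.111 for Dusp1 and 0.382 for Dusp6 over Sal and of 0.574 and 0.0777 over PTZ0, while the log2 differences remained between -1.33 and -0.64. With edgeR the adjusted p-values were 0.0702 and 0.0678 over Sal and 0.133 and 0.0169 over PTZ0. Over PTZ0 9 of 20 alternatives lost the call of Dusp1 (adjusted p from 0.00396 to 0.574), among them the fits without the 5 libraries rich in choroid plexus markers and those without each of Control PTZ0 replicates 1 and 3, CBP-ifKO PTZ0 replicates 2 and 3, Control PTZ45 replicates 1 and 2 and CBP-ifKO PTZ45 replicate 1.

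Dusp6 (ENSMUSG00000019960, chromosome 10, 99263231 to 99267489, plus strand) encodes the cytoplasmic phosphatase that binds and inactivates ERK and is a widely used readout of ERK activity. Control libraries held 635.0, 563.9 and 660.9 normalized counts in Sal, 533.7, 658.3 and 607.5 in PTZ0, and 1528 and 1340 in PTZ45. CBP-ifKO libraries held 481.1, 475.2 and 620.7 in Sal, 522.3, 531.8 and 454.2 in PTZ0, and 693.9, 686.8 and 781.7 in PTZ45. The PTZ45 libraries of each genotype lay above all its other libraries, by a wide gap in controls and a narrow one in CBP-ifKO mice. The shares of all genes that lay higher without overlap are those given for Dusp1. In controls Dusp6 rose 2.31-fold over Sal (log2 1.20, SE 0.11, adjusted p 1.43e-24 by DESeq2) and 2.40-fold over PTZ0 (1.26, SE 0.11, adjusted p 6.36e-30). In CBP-ifKO mice the log2 fold change over Sal was 0.44 (SE 0.13) with an adjusted p of 0.119 by DESeq2, which fell to 0.00326 without CBP-ifKO Sal replicate 3 and ranged up to 1 over 15 alternatives. Over PTZ0, within lane 5, it rose by 0.52 (SE 0.11, adjusted p 0.00216 by DESeq2), a call that 6 of 15 alternatives lost (adjusted p from 0.00126 to 1), among them those without CBP-ifKO PTZ0 replicate 3, CBP-ifKO PTZ45 replicate 3 and the libraries rich in choroid plexus markers. The log2 difference of the responses between genotypes was -0.76 over Sal (SE 0.17, adjusted p 0.00293) and -0.74 over PTZ0 (SE 0.15, adjusted p 0.000314 by DESeq2). The former was also lost without the 5 libraries rich in choroid plexus markers and without Control Sal replicate 2, which is one of them, with adjusted p-values over 20 alternatives from 0.000125 to 0.382.

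Dusp5 (ENSMUSG00000034765, chromosome 19, 53529109 to 53542431, plus strand), the nuclear phosphatase specific for ERK, had 134.0, 153.9 and 156.4 normalized counts in Control Sal, 165.0, 135.9 and 146.6 in Control PTZ0, and 313.1 and 213.0 in Control PTZ45. In CBP-ifKO mice it had 129.4, 122.4 and 154.4 in Sal, 144.9, 138.4 and 126.2 in PTZ0, and 126.2, 152.9 and 185.1 in PTZ45. Both Control PTZ45 libraries lay above all other libraries, far apart from each other, and the CBP-ifKO groups overlapped. In controls 16.7% of all genes tested lay higher without overlap over Sal, and 17.6% over PTZ0. In controls Dusp5 rose by 0.83 in log2 over Sal (SE 0.20, adjusted p 0.00328 by DESeq2) and by 0.82 over PTZ0 (SE 0.19, adjusted p 0.00316). Over the alternatives with an adjusted p, these rises ran from 0.525 to 1.08 and from 0.757 to 1.066. In CBP-ifKO mice the log2 fold changes were 0.17 over Sal (95% interval -0.21 to 0.56) and 0.18 over PTZ0 (-0.18 to 0.55), with adjusted p-values of 1 by DESeq2. The difference between genotypes was not called, at -0.66 over Sal (95% interval -1.20 to -0.13) and -0.64 over PTZ0 (-1.15 to -0.12), with unadjusted p-values of 0.0154 and 0.0152 and adjusted p-values of 1 by DESeq2. Over 20 alternatives this difference ran from -0.91 to -0.354 over Sal and from -0.883 to -0.327 over PTZ0. In controls, 4 of 14 alternatives lost the call over Sal (adjusted p from 8.96e-05 to 0.947), including those without Control Sal replicate 1 and without Control PTZ45 replicate 1, and 5 of 13 lost that over PTZ0, from 5.72e-05 to 0.727, including those without Control PTZ0 replicate 2 and without Control PTZ0 replicate 3. An antisense transcript overlaps the start of Dusp5, with the same limit on strand as for Dusp1.

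Dusp4 (ENSMUSG00000031530, chromosome 8, 34807297 to 34819894, plus strand) encodes a nuclear phosphatase related to that of Dusp1. Control libraries held 193.2, 227.8 and 194.4 normalized counts in Sal, 230.0, 192.1 and 190.4 in PTZ0, and 290.9 and 246.6 in PTZ45. CBP-ifKO libraries held 124.3, 116.2 and 153.0 in Sal, 135.1, 144.2 and 117.5 in PTZ0, and 130.4, 122.0 and 126.2 in PTZ45. Every CBP-ifKO library lay below every control library, whatever the treatment, the highest of 9 at 153.0 and the lowest of 8 at 190.4, and 2.99% of the 18682 genes tested did not overlap between the genotypes over all libraries. In controls the 2 PTZ45 libraries lay above the others, with log2 fold changes of 0.40 over Sal (adjusted p 0.458 by DESeq2) and 0.39 over PTZ0 (adjusted p 0.401), which were not called. Of all genes tested, 16.7% lay higher without overlap over Sal and 17.6% over PTZ0 in controls. In CBP-ifKO mice the corresponding values were -0.08 and -0.06, with adjusted p-values of 1 by DESeq2. The difference of these responses between genotypes was not called, at -0.48 over Sal (95% interval -0.94 to -0.01) and -0.46 over PTZ0 (-0.91 to -0.01), with unadjusted p-values of 0.045 and 0.0448 and adjusted p-values of 1 by DESeq2.

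**Figure D2:**
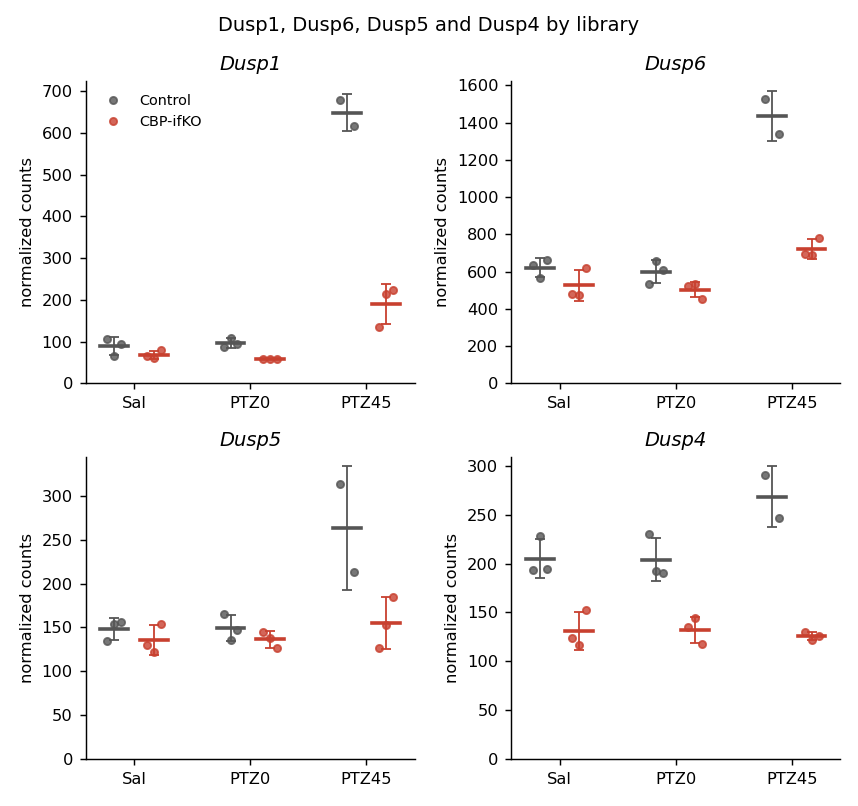
Normalized counts (y axis) of Dusp1, Dusp6, Dusp5 and Dusp4 in each library by treatment (x axis), with Control libraries in grey and CBP-ifKO libraries in red, bars for the mean and whiskers for the SD. Dusp1 and Dusp6 stand highest in the 2 Control PTZ45 libraries, at 617.1 and 680.1 and at 1340 and 1528, and Dusp4 is lower in all CBP-ifKO libraries than in any Control library.

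Dusp2 (ENSMUSG00000027368, chromosome 2, 127336159 to 127338376, plus strand), the remaining nuclear enzyme, had few counts. Its normalized counts ran from 0 to 7.08 in control libraries and from 3.15 to 12.4 in CBP-ifKO libraries, over all treatments. Control Sal replicate 2 had a count of 0, and the independent filtering of DESeq2 left Dusp2 without an adjusted p in most comparisons. Its interval for the log2 fold change over Sal after PTZ was wide, from -1.88 to 2.59 in controls and from -2.42 to 0.54 in CBP-ifKO mice.

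Dusp7 (ENSMUSG00000053716, chromosome 9, 106368632 to 106375724, plus strand), the cytoplasmic relative of Dusp6, did not share its response. Its normalized counts were 466.5 to 477.6 in Control Sal, 429.9 to 483.7 in Control PTZ0 and 410.3 to 431.3 in Control PTZ45, and 326.7 to 452.3, 363.5 to 444.4 and 350.1 to 372.6 in the CBP-ifKO groups in the same order. The log2 fold change in controls was -0.17 over Sal (95% interval -0.41 to 0.08) and -0.10 over PTZ0 (-0.34 to 0.14), with adjusted p-values of 0.866 and 0.937 by DESeq2.

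The members that prefer JNK and p38 were not called in either genotype after PTZ. Dusp8 (ENSMUSG00000037887, chromosome 7, 142079490 to 142095843, minus strand), with the highest mean per kb in Control Sal and a range that overlapped that of Dusp6, had 961.5 to 1076 normalized counts in Control Sal and 802.9 and 1007 in Control PTZ45, with a log2 fold change of -0.20 (95% interval -0.43 to 0.04). In CBP-ifKO mice it had 790.5 to 989.8 in Sal and 825.7 to 840.7 in PTZ45 (-0.13, 95% interval -0.35 to 0.08). Dusp10 (chromosome 1, 184013302 to 184075636, plus strand) had 46.3 to 87.2 normalized counts over all libraries, with the 2 extremes in CBP-ifKO mice, and its interval in controls over Sal was wide, from -0.44 to 0.67. Dusp16 (chromosome 6, 134715468 to 134792625, minus strand) had 178.5 to 237.9 over all libraries and a log2 fold change of 0.27 in controls over Sal (95% interval -0.07 to 0.61). Dusp14 (chromosome 11, 84048041 to 84069261, minus strand), the atypical member, had 188.0 to 229.0 in Control Sal and 215.8 and 269.4 in Control PTZ45 (0.18, 95% interval -0.17 to 0.52). The lowest adjusted p among these 4 genes in the PTZ45 comparisons of controls was 0.782 by DESeq2, that of Dusp8 over Sal.

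**Figure D3:**
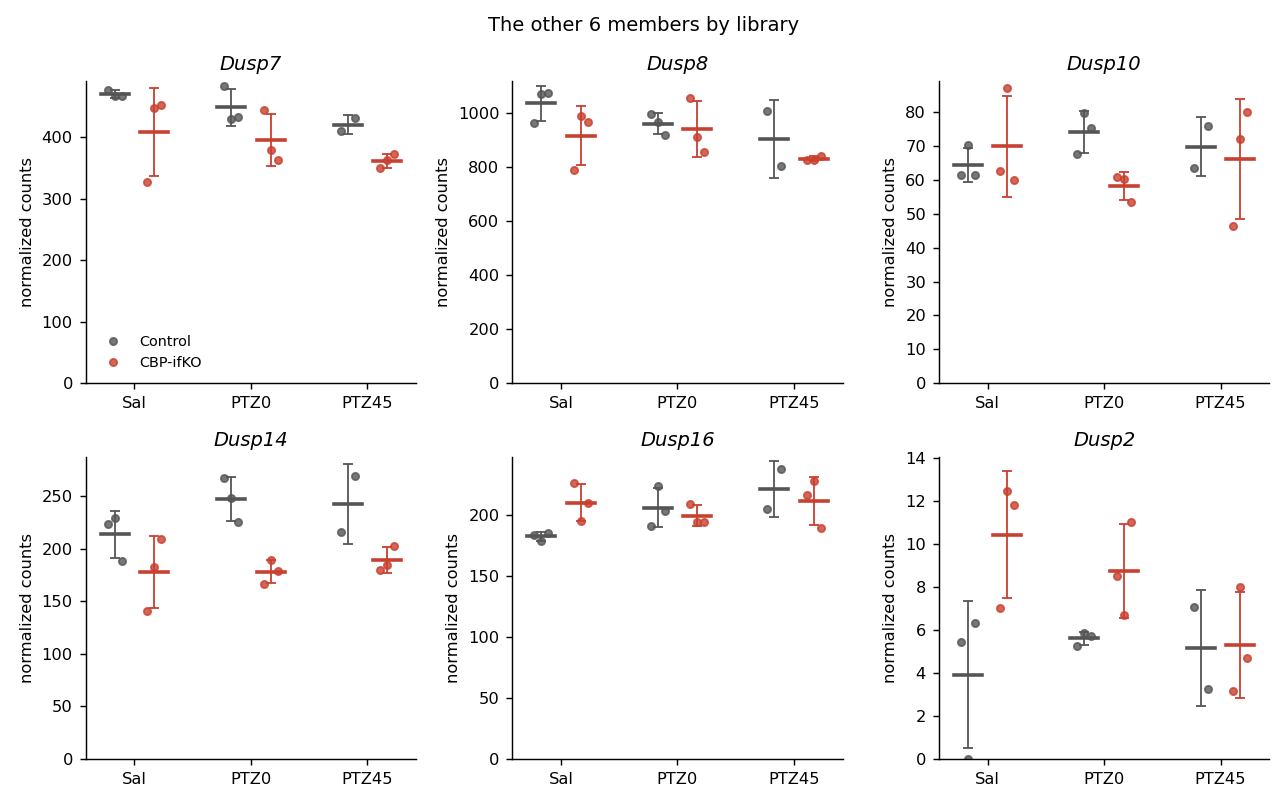
Normalized counts (y axis) of the 6 other members in each library by treatment (x axis), Control in grey and CBP-ifKO in red, with bars for the mean and whiskers for the SD. Dusp8, Dusp10 and Dusp16 overlap between the genotypes in most treatments, and Dusp2 stays at or below 12.4. Every CBP-ifKO library lies below every Control library for Dusp7 in Sal and PTZ45, and for Dusp14 in PTZ0 and PTZ45. Of all genes tested, 21.2% in Sal, 28.9% in PTZ0 and 33.8% in PTZ45 do not overlap between the genotypes.

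The effect of genotype was then tested within each treatment, always across lanes. In Sal, 1 of 9 members with an adjusted p was called, where 2.04% of 15004 genes were called and 1.77% lower, and it was Dusp4, lower by 0.63 in log2 in CBP-ifKO mice (SE 0.17, adjusted p 0.0228 by DESeq2). Of 15 alternatives, 10 lost this call, over log2 fold changes of -0.76 to -0.50 and an adjusted p of 0.00247 to 1, among them the fits without each of the 3 Control Sal libraries, CBP-ifKO Sal replicate 1 and CBP-ifKO Sal replicate 2. In PTZ0, 3 of 9 members were called, all lower, where 6.68% of 12752 genes were called and 5.25% lower. They were Dusp4 (-0.63, SE 0.16, adjusted p 0.00425), Dusp14 (-0.47, SE 0.14, adjusted p 0.0226) and Dusp1 (-0.72, SE 0.23, adjusted p 0.0274 by DESeq2). In PTZ45, 4 of 9 members were called, all lower, where 3.07% of 15224 genes were called and 2.82% lower. Dusp1 was lower by 1.77 (SE 0.18, adjusted p 6.65e-20), Dusp4 by 1.09 (SE 0.19, adjusted p 2.4e-06), Dusp6 by 0.99 (SE 0.11, adjusted p 4.33e-16) and Dusp5 by 0.77 (SE 0.22, adjusted p 0.0192 by DESeq2). Cell type markers were called as well. Aldoc and Slc1a3 (astrocyte) were lower in Sal, and Aldoc, Pdgfra (oligodendrocyte lineage) and Hbb-bs (blood) in PTZ0. Of the excitatory neuron markers, C1ql2 was lower in every treatment and Nrgn in PTZ0 and PTZ45. Neurod2 was higher in Sal and PTZ0, and Prox1 in PTZ0. The part of these markers was not tested.

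Not all of these calls were equally firm. In PTZ45 the log2 fold change of Dusp5 ran from -1.019 to -0.462 over 14 alternatives, and that of Dusp4 from -1.206 to -0.966. Without the 5 libraries rich in choroid plexus markers, 0 members were called in Sal and in PTZ0 (DESeq2), and Dusp5 was no longer called in PTZ45. This alternative also leaves fewer libraries. Over all alternatives with an adjusted p, the log2 fold changes in PTZ0 ran from -0.706 to -0.536 for Dusp4 and from -0.806 to -0.634 for Dusp1. For Dusp14 they ran from -0.53 to -0.406. In PTZ0 no member was called without Control PTZ0 replicate 1 or without CBP-ifKO PTZ0 replicate 3, and Dusp4 alone was called without Control PTZ0 replicate 2, Control PTZ0 replicate 3 or CBP-ifKO PTZ0 replicate 1, while the call of Dusp1 was also lost without CBP-ifKO PTZ0 replicate 2. In PTZ45 the calls of Dusp4 and Dusp5 were lost without Control PTZ45 replicate 1, and that of Dusp5 also without CBP-ifKO PTZ45 replicate 1 or 2. The calls of Dusp1 and Dusp6 in PTZ45 were kept under all 14 alternatives, with adjusted p-values of at most 2.54e-06 and 5.68e-06. On lane 4, which held both a control and a CBP-ifKO group, the CBP-ifKO Sal libraries had 116.2 to 153.0 normalized counts of Dusp4 and the Control PTZ45 libraries 246.6 and 290.9, but these groups differ in treatment as well as genotype.

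**Figure D4:**
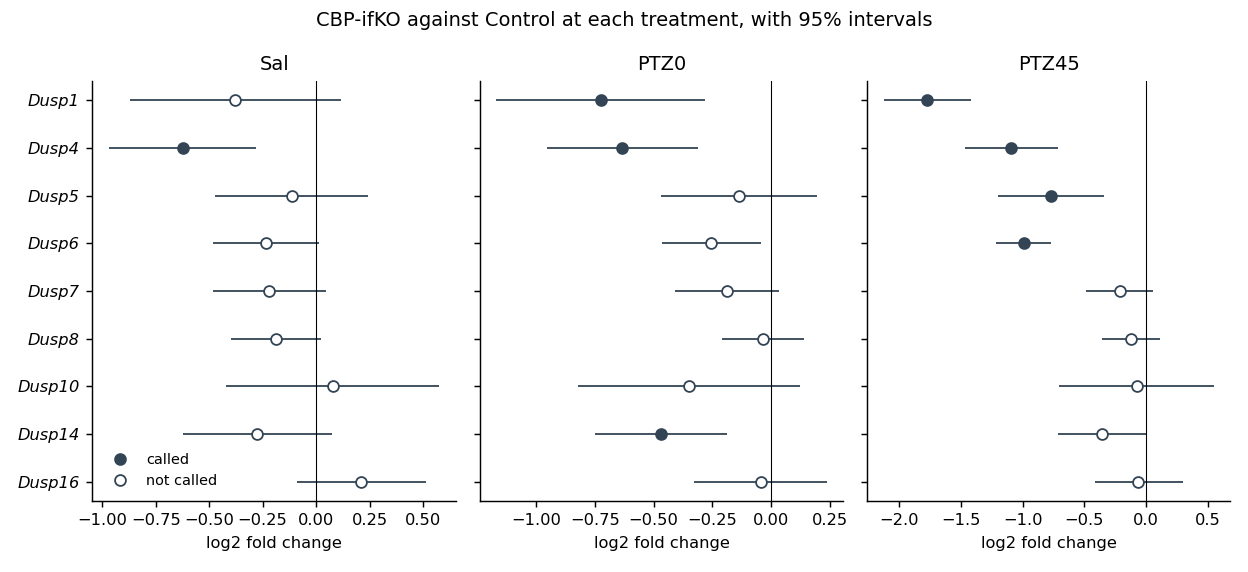
Log2 fold changes (x axis, scaled separately in each panel) of CBP-ifKO against Control in 9 members, in Sal, PTZ0 and PTZ45, with bars for 95% intervals and filled points for adjusted p under 0.05. Dusp4 is called in all 3 treatments, at -0.63, -0.63 and -1.09, and Dusp1, Dusp5 and Dusp6 also have their lowest values, -1.77, -0.77 and -0.99, in PTZ45.

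Over all treatments, with treatment as a term in 1 fit of all libraries, 6 of 9 members were lower in CBP-ifKO mice and none was higher, where 19.3% of 18682 genes were called and 11.5% lower. Dusp4 was lower by 0.76 in log2 (SE 0.09, adjusted p 1.15e-14 by DESeq2), with means of 129.9 normalized counts in 9 CBP-ifKO and 220.7 in 8 control libraries, and kept its call under all 26 alternatives. Dusp14 was lower by 0.37 (SE 0.08, adjusted p 0.000215), from 233.5 to 181.7, also under all 26. Dusp7 was lower by 0.21 (SE 0.07, adjusted p 0.0103), a call lost without the libraries rich in choroid plexus markers (adjusted p 0.16, the highest of 26 from 0.00222). Dusp1 (-0.94), Dusp6 (-0.47) and Dusp5 (-0.32, adjusted p 0.0303 by DESeq2) were lower as well, and these estimates include the PTZ45 libraries in which they differed most. For Dusp5, 7 of 26 alternatives lost the call (adjusted p from 0.00891 to 0.161), including those without Control PTZ0 replicate 1, CBP-ifKO PTZ0 replicate 3, Control PTZ45 replicate 1, CBP-ifKO PTZ45 replicate 1 and CBP-ifKO PTZ45 replicate 2. Dusp8 (-0.11, 95% interval -0.23 to 0.00), Dusp10 (-0.12, -0.36 to 0.12) and Dusp16 (0.04, -0.10 to 0.18) were not called. In the same fit, 3 of 6 astrocyte markers and 2 of 6 interneuron markers were also called lower, and of 8 excitatory neuron markers 2 were called lower (C1ql2 and Nrgn) and 2 higher (Neurod2 and Prox1). Of 6 oligodendrocyte lineage markers Pdgfra was called lower and 4 had an unadjusted p under 0.05, with a median of -0.15 in log2, of 6 endothelial and mural markers Rgs5 was called lower, and of 5 blood markers Alas2 was called higher. Summed astrocyte markers ran from 20170 to 21940 in control and from 17270 to 21860 in CBP-ifKO libraries, and summed interneuron markers from 6438 to 6799 and from 5752 to 6484. Within a treatment, the astrocyte sums were lower in CBP-ifKO mice without overlap in Sal and PTZ0, and overlapped in PTZ45. The interneuron sums were lower without overlap in Sal and PTZ45, and overlapped in PTZ0. The part of these markers in the lower Dusp levels was not tested.

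The makeup of the family RNA followed these changes. The summed level per kb of the 10 members was 868.9 ± 8.43 in Control Sal (SD, n = 3), 867.3 ± 24.99 in Control PTZ0 (n = 3) and 1348 ± 97.3 in Control PTZ45 (n = 2), against 747.4 ± 88.8, 733.3 ± 49.1 and 823.6 ± 53.5 (n = 3 each) in the CBP-ifKO groups. After PTZ, Dusp6 made up 33.9% ± 0.708 of the sum in controls and 27.95% ± 1.05 in CBP-ifKO mice, and Dusp1 14.5% ± 0.0518 and 6.92% ± 1.44. Dusp8, whose Control Sal level per kb overlapped that of Dusp6, made up 13.7% ± 1.21 and 20.8% ± 1.18. The sums are given as a description and were not tested.

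**Figure D5:**
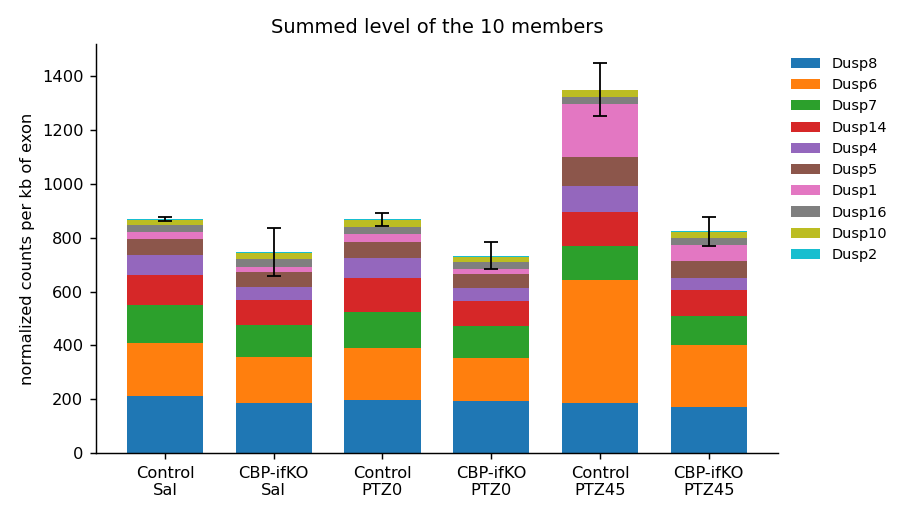
Summed level of the 10 members in each group (y axis, normalized counts per kb of exon), stacked by gene, with whiskers for the SD of the sum over libraries. Control PTZ45, at 1348, is the highest group, and the added height comes mainly from the Dusp6 and Dusp1 segments.

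The other genes of the pathway were taken from lists. Of 10 MAP kinases, the substrates of the family, 22 upstream kinases and Ras regulators, 19 kinases and transcription factors downstream of MAP kinases and 20 other dual specificity phosphatases, 0 were called after PTZ in either genotype, against Sal or PTZ0, by DESeq2 or by edgeR. At an unadjusted p under 0.05 by DESeq2 in controls over Sal, the counts were 0 of 9 MAP kinases, 2 of 22 upstream genes, 4 of 19 downstream genes and 0 of 15 phosphatases. Of 16 other feedback inhibitors, 2 of 15 with an adjusted p rose in controls in both comparisons, Errfi1, an inhibitor of the EGF receptor (1.13 in log2 over Sal, adjusted p 5.07e-17), and Spry2, a Sprouty protein that dampens receptor signalling to Ras (0.53, adjusted p 0.00526 by DESeq2), and 0 of 15 in CBP-ifKO mice by DESeq2 and by edgeR, with 3 at an unadjusted p under 0.05 over Sal. Of 16 ERK-responsive genes, 8 of 15 rose in controls over Sal, with Fos (6.08), Egr2 (5.11) and Ier2 (3.03) furthest, and 4 of 15 in CBP-ifKO mice, with Fos (2.91), Egr2 (2.17) and Egr1 (0.71), where 1.17% and 0.294% of all genes were called. With edgeR the counts of ERK-responsive genes were 8 and 1. The interaction over Sal was called, lower in CBP-ifKO mice, for 8 of 15 of these genes and for Errfi1 (-0.90, SE 0.21, adjusted p 0.00682 by DESeq2), where 0.329% of all genes were called. With edgeR it was called for 5 of the ERK-responsive genes and for 0 of the feedback inhibitors. The medians of the ERK-responsive genes were 1.10 in controls and 0.10 in CBP-ifKO mice over Sal, beside 0.01 and 0.00 over all genes tested.

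Between genotypes the same lists were read over all treatments, where 19.3% of all genes were called and 11.5% lower. Of the ERK-responsive genes 10 of 15 were called, all lower, with a median of -0.44 beside 0.01 over all genes tested, and Fos (-1.53), Egr2 (-1.45) and Junb (-1.30) were furthest, in a fit that includes the PTZ45 libraries. Of the feedback inhibitors 9 of 15 were called, all lower, and 6 were not, with a median of -0.13 beside 0.01 over all genes tested, and Rasal1, a Ras GTPase-activating protein, was furthest at -0.64 (SE 0.07, adjusted p 1.12e-18 by DESeq2), followed by Errfi1 (-0.50) and Spry2 (-0.36). Of the MAP kinases, 4 of 9 were called, all lower, with Mapk3, which encodes ERK1, at -0.24 (adjusted p 6.94e-05 by DESeq2). Of 22 upstream kinases and Ras regulators, 7 were called lower, with Map2k1, the kinase that activates ERK, at -0.29 (adjusted p 1.55e-07 by DESeq2), and 1 higher, Nras (0.13). Of 15 other dual specificity phosphatases, 4 were called higher, with Ssh3 (0.33), Dusp11 (0.26) and Ssh1 (0.25) furthest, and 1 lower, Dusp26 (-0.28). Of 19 kinases and transcription factors downstream of MAP kinases, 3 were called higher (Elk3, Elk1 and Rps6ka1) and 3 lower (Srf, Mapkapk2 and Rps6ka5).

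Over the 17 libraries, the genes whose log2(normalized count + 1) was most like that of Dusp1, of the 13040 genes whose mean reached 50, were Fos (Pearson r 0.97), Dusp6 (0.96) and Npas4 (0.96). For Dusp6 they were Dusp1, Nr4a1 (0.96) and Arc (0.96), and for Dusp5 they were Errfi1 (0.95), Impdh2 (0.91) and Slc25a3 (0.91). Between members the highest correlations were those of Dusp1 with Dusp6, Dusp5 with Dusp6 (0.88) and Dusp1 with Dusp5 (0.83), followed by Dusp7 with Dusp8 (0.80) and Dusp4 with Dusp14 (0.76). The libraries share the treatments, genotypes and lanes that move these genes, so the correlations describe the samples and carry no test.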

How the data were processed

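Hippocampal RNA of 17 mice was sequenced. The authors deposited raw counts of reads per Ensembl gene. Per the labels and the study's methods, reads were trimmed (Trim Galore 0.6.4), checked (FastQC 0.11.8), aligned to mm10 with STAR 2.6.1, filtered on mapping quality and counted over exons with Rsubread. Whether counting used strand is not given in the sources used here. Of 18 count columns, 1 matched no labelled sample and was not used. Its name resembles those of the Control PTZ45 libraries, a group of 2 here. The members, gene lists and tests were chosen with earlier results of these data known.

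Normalized counts are counts divided by DESeq2 size factors. The test was the Wald test of DESeq2 1.42.0 (R 4.3.3), the tool of the study's methods. The libraries of each comparison were fitted alone, a choice made here, over all genes with at least 1 count, with Benjamini-Hochberg adjustment and a threshold of 0.05. Interactions used the 4 groups concerned, and the genotype fit over all treatments added treatment as a term. Intervals are 95% Wald intervals, which give the uncertainty of a log2 fold change from its SE, estimated from few animals per group. Beside the members, genes were named from the lists where they were called, up to 3 in each direction by size of change, and for likeness the 3 with the highest correlation. Coordinates are those of GENCODE M21 on GRCm38, which matched 99.6% of the gene IDs.

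Alternatives were edgeR 4.0.16 (quasi-likelihood), TMM size factors, a minimum of 10 counts in 2 libraries together with no independent filtering, no independent filtering alone, the replicate number as a block, a GC correction, 1 fit of all libraries, leaving out each library, and, chosen after seeing the data, leaving out 5 libraries rich in choroid plexus markers. Tested on simulated data, the fit recovered 82% of changes of log2 size 1 and 100% of size 2 for Control PTZ45 against Sal over 33369 genes, and 52% and 99% for the interaction over Sal over 36192 genes. Of the simulated calls 6.67% and 3.21% were false. Every simulated gene had the same dispersion, and only genes of higher mean were changed. No difference of lane or choroid plexus was simulated, so these shares may not hold for the members. The lowest chi-square per degree of freedom between replicates was 2.16, above the level of sampling noise, and all libraries were kept apart. Totals of 5831992 to 18735643 counts per library limit Dusp2 most.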

Additional observations from a re-analysis of the deposited data

Results flagged for a closer look

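For Dusp1 and Dusp6 the interaction of genotype and PTZ45, a test of the difference itself, was called by DESeq2. Over Sal, the log2 response in CBP-ifKO mice was below that in controls, with a difference of -1.40 for Dusp1 and -0.76 for Dusp6, and over PTZ0 the differences were -1.05 and -0.74. Both pairs of values use the same 2 Control PTZ45 and 3 CBP-ifKO PTZ45 libraries, and the lanes of the groups differ. The calls depended on the fit. Over Sal 0 of the 2 genes were called with edgeR, over both Sal and PTZ0 0 were called without Control PTZ45 replicate 1, and over PTZ0 9 of 20 alternatives lost the call of Dusp1.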

How the results depend on the processing

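Of 27 calls of a member in a comparison, 11 were kept under every alternative that gave an adjusted p and 16 were lost under at least 1, and of 93 member comparisons that were not called 3 passed under at least 1. No call changed direction. Depth limited Dusp2, with 0 to 16 raw counts per library. TMM size factors, the minimum count with independent filtering off, and the GC correction lost no call. The number of members called fell with edgeR to 0 for CBP-ifKO PTZ45 over Sal, 1 for CBP-ifKO PTZ45 over PTZ0, 0 for genotype in Sal, and 0 and 1 for the interactions over Sal and PTZ0. Without independent filtering it was 0 for genotype in Sal, 1 in PTZ0 and 5 over all treatments. In 1 fit of all 17 libraries it was 2 for CBP-ifKO PTZ45 over Sal, with Dusp6 added. Without the 5 libraries rich in choroid plexus markers it was 2 for Control PTZ45 over PTZ0, 1 for CBP-ifKO PTZ45 over PTZ0 and 1 for each interaction. For genotype it was 0 in Sal, 0 in PTZ0, 3 in PTZ45 and 4 over all treatments. This alternative also leaves fewer samples, and the cause of the other losses was not tested.

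Leaving out each library in turn gave 2 to 3 members called for Control PTZ45 over Sal, 1 to 2 for CBP-ifKO PTZ45 over Sal, 1 to 3 for Control PTZ45 over PTZ0, 1 to 2 for CBP-ifKO PTZ45 over PTZ0, 0 to 2 for genotype in Sal, 0 to 2 in PTZ0, 2 to 4 in PTZ45, 0 to 2 for each interaction and 5 to 7 for genotype over all treatments. The lowest count for Control PTZ45 over PTZ0 came without Control PTZ45 replicate 1, where 7 members, Dusp1 among them, had no adjusted p, so that Dusp1 counts there as neither kept nor lost.

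With the replicate block, members called were 2 for Control PTZ45 over Sal, 2 over PTZ0, 1 for CBP-ifKO PTZ45 over PTZ0, 0 for genotype in Sal, 0 in PTZ0 and 2 in PTZ45, and with the replicate block and the GC correction the counts in these comparisons were 2, 2, 1, 0, 0 and 2. For genotype in PTZ0, 4 members, Dusp1 among them, had no adjusted p with the block, and 7, with Dusp1, Dusp4 and Dusp14 among them, had none with the block and the GC correction. There these members count as neither kept nor lost. Correlations of deviations between same-numbered libraries ran from -0.523 to 0.479, and 8 of 24 were over 0.1. Deviations from a group mean cancel out within each group, so these correlations cannot show whether same-numbered libraries were paired. Numbers were taken from the sample titles, and the count column of Control PTZ45 replicate 2 carries a different number. The block and the correlations place this library by its title.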
